A study of Mus musculus with 4 samples.

Results

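The 10 genes described here encode cytokines other than those of the interleukin-1 family that keratinocytes can make: Tslp, Il6, Il19, Il20, Il24, Il23a, Il17c, Tnf, Csf2 and Csf3. They were chosen by name from the 54752 genes of the deposited tables, with earlier results of these data known. All 10 were found there, each under 1 identifier. Total RNA was sequenced from the epidermis of 4 C57BL/6 mice at postnatal day 0, of which 2 were of genotype Skiv2l fl/fl K14-Cre (the knockouts) and 2 of genotype Skiv2l ctl (the controls). In the knockouts, Cre is made from the keratin 14 promoter, which is active in keratinocytes, and removes a floxed part of Skiv2l, the helicase gene of the cytoplasmic RNA exosome. The controls were littermates, and by the study's methods this genotype name takes in animals with Skiv2l fl/fl or fl/+ and no Cre, and fl/+ animals that carry K14-Cre, and the labels do not say which pup was which. The pups are separate animals, and the comparison asks how loss of Skiv2l in keratinocytes relates to the cytokine transcripts of newborn epidermis.

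Keratinocytes release cytokines that act on immune cells and on the keratinocytes themselves. TSLP signals to dendritic cells and type 2 lymphocytes through a receptor made of CRLF2 and the IL-7 receptor chain, whereas IL-19, IL-20 and IL-24 are IL-10 family cytokines that signal to STAT3 through receptors built with IL-20RB. IL-17C acts on epithelial cells through IL-17RE, and TNF, IL-6, the IL-23 subunit p19 and the colony-stimulating factors are made in skin by keratinocytes and by resident immune cells.

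Levels are given as FPKM, the fragments of a gene scaled for transcript length and for the fragments of the library, so that levels can be set side by side between genes. The files hold no read counts, and a gene listed at 0 can also be a failed estimate, since 37 mitochondrial genes were listed at 0 in every library. The 4 libraries were of like depth, with a ratio of coverage to FPKM between 5.84 and 6.27, and 16138 to 17761 genes had FPKM above 0.5. Skiv2l itself stood at 19.3 and 19.1 FPKM in the controls and at 10.8 and 8.55 FPKM in knockout pups. The log2 fold change was -0.92 (SE 0.12, limma adjusted p = 0.00368), and the call was lost without either control (adjusted p = 0.0562 and 0.0547). All 6 keratinocyte marker genes were abundant, from 85.7 FPKM for Trp63 upwards in the knockouts. Fibroblast markers, mostly Dcn, summed to 61.2 and 68.9 FPKM in the controls against 21.9 and 24.96 FPKM in the knockouts. Dcn alone was 56.96 and 62.7 FPKM against 16.9 and 21.4 FPKM, so the sum mainly follows this gene. Of the 5 markers, Dcn and Col1a2 were lower in both knockouts than in both controls, Pdgfra was higher, and Col1a1 and Col3a1 overlapped. Of all 13609 tested genes, 55.3% were lower and 18.2% higher in both knockouts, so this count does not set the markers apart. The part of fibroblasts in the cytokine levels was not tested.

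In knockout epidermis, Tslp and Il24 rose, Tnf fell, and of the other 7 cytokines 2 were tested and not called, while 5 did not pass the filter, 3 of them listed at 0 in all 4 libraries. Protein-coding genes were tested if any library exceeded 0.5 FPKM, which left 13609 genes and 5 of the 10 cytokines, and of the tested genes 8.99% were called higher and 25.4% lower (adjusted p below 0.05). Among the 5 tested cytokines there were 2 calls higher and 1 lower. Tslp and Il24 passed the filter only through the knockouts, and Il17c only through knockout replicate 1. The count and the median of these 5 are thus descriptions and not a test against all genes. Their median log2 fold change was 0.06 against -0.20 over all tested genes. That overall median moved to -0.03 under median scaling, which sets the libraries to a common median, and the calls over all genes then split into 1894 higher and 1623 lower in place of 1223 and 3455. Fold changes are differences of log2(FPKM + 1), a scale on which low genes appear to change less than they do. In whole epidermis, fewer cells of a type and less RNA per cell cannot be told apart.

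**Figure D1:**
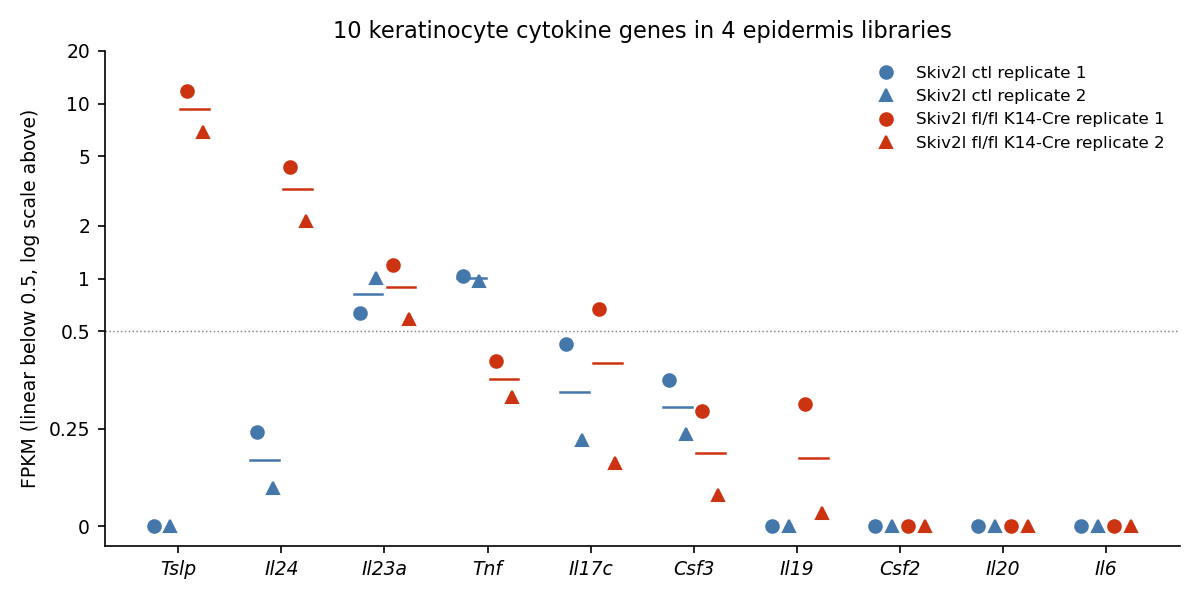
FPKM of the 10 cytokine genes in each of the 4 libraries (y axis, linear below 0.5 and logarithmic above it, with a dotted line at the filter of 0.5); points are single pups, and short bars are means of groups with no library at 0. Tslp and Il24 lie higher in both knockouts than in both controls, Tnf lies lower, and Csf2, Il20 and Il6 are at 0 throughout.

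Tslp (ENSMUSG00000024379.4, chromosome 18, 32815383 to 32819797, plus strand), the epithelial cytokine of type 2 inflammation, was listed at 0 in both controls. It was 11.8 and 6.88 FPKM in the knockouts, with a mean coverage of 58.5 and 34.5 reads per base. It was thus the most abundant of the 10 cytokines in both of these libraries and called higher (limma adjusted p = 0.000458), and no fold is given because the fitted difference depends on the pseudocount. The call held in all 12 alternative analyses, with adjusted p up to 0.0199. Among the 964 protein-coding genes whose transcripts are within 10% of the length of Tslp, the 5th percentile of the values above 0 was 0.0349 and 0.0273 FPKM in the controls.

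Il24 (ENSMUSG00000026420.16, chromosome 1, 130882074 to 130887454, minus strand), which encodes a cytokine that signals through IL-20 receptors, was 0.242 and 0.0979 FPKM in the controls. In the knockouts it was 4.34 and 2.15 FPKM. The group means were 0.170 ± 0.102 and 3.25 ± 1.56 FPKM (SD, n = 2 each), a ratio of 19.1, and both knockouts lay above both others. The log2 fold change was 1.81 (SE 0.26, limma adjusted p = 0.00440). Without control replicate 2 it was 1.72 and no longer called (adjusted p = 0.0574), and it was called in the other 11 alternatives.

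Il24 belongs to a block of IL-10 family genes on chromosome 1, in which Il20 starts 24 kb and Il19 52.7 kb from the start of Il24. Il19 (ENSMUSG00000016524.12) was listed at 0 in both controls and at 0.314 and 0.0346 FPKM in the knockouts. These levels were under the filter, and with no filter the difference was not called (limma adjusted p = 0.270). Il20 (ENSMUSG00000026416.12), between Il24 and Il19, was listed at 0 in all 4 libraries. Il10, 132.4 kb away, did not exceed 0.0913 FPKM in any library. On the other side, Fcmr, which encodes an IgM receptor and ends 1283 bases from Il24, was listed at 0 in both controls and was 0.335 and 0.497 FPKM in the knockouts, under the filter. Within the block, Il24 was therefore the only cytokine gene above 0.5 FPKM in any library.

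**Figure D2:**
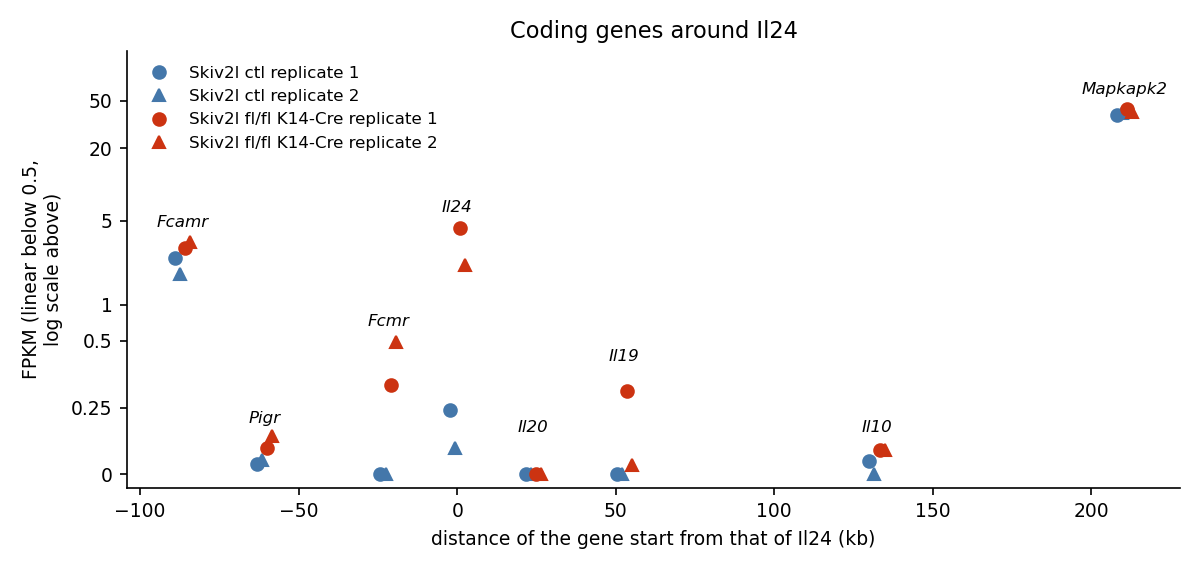
FPKM (y axis, linear below 0.5 and logarithmic above it) of the protein-coding genes around Il24 against the distance of each gene's start from that of Il24 in kb (x axis, points spread slightly for display); each point is 1 library. Il24 reaches 4.34 and 2.15 FPKM in the knockouts while Il20 is at 0 and Il19 stays at or under 0.314.

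Tnf (ENSMUSG00000024401.14, chromosome 17, 35199381 to 35202007, minus strand), the founding ligand of the TNF family, went the other way. It was 1.04 and 0.966 FPKM in control pups and 0.423 and 0.332 FPKM in knockout pups, with no overlap. The control mean was 1.004 ± 0.0540 FPKM and the knockout mean 0.377 ± 0.0648 FPKM (SD, n = 2 each), a ratio of 2.66. The log2 fold change was -0.54 (SE 0.14, limma adjusted p = 0.0306), in a comparison in which 55.3% of all tested genes were lower in both knockouts than in both controls and 18.2% higher. The call was lost under median scaling (-0.46, adjusted p = 0.0590), under quantile normalization (-0.37, adjusted p = 0.0950) and without any 1 of the 4 libraries (adjusted p from 0.0562 to 0.0968), so only the direction held throughout. Its neighbours Ltb and Lta, ligands of the same family, were both under 0.5 FPKM in every library and were not tested.

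Leukocytes also make TNF, so their marker genes are given beside it. Of 14 such markers, 9 were lower in both knockouts than in both controls. Among the 9 markers tested, 8 were, against 55.3% of all tested genes. Of these 9, 2 were called lower and 0 higher, against 25.4% and 8.99% of all tested genes. The calls were thus near the background, and the share lower in both knockouts was above it. Ptprc, the pan-leukocyte phosphatase CD45, was 3.57 and 3.31 FPKM in control pups and 1.87 and 1.71 FPKM in knockout pups (log2 fold change -0.67, SE 0.12, limma adjusted p = 0.0101). Csf1r, the receptor of macrophages and Langerhans cells, was 6.77 and 9.26 FPKM against 4.38 and 3.48 FPKM (log2 fold change -0.86, SE 0.17, limma adjusted p = 0.0131). Both calls were lost without control replicate 2 (adjusted p = 0.0723 for Ptprc and 0.104 for Csf1r), that of Ptprc also without control replicate 1 (0.0902) and that of Csf1r without knockout replicate 2 (0.0516) and with no filter (0.0511). The sum of the 14 markers was 32.2 and 42.4 FPKM in control pups and 27.8 and 23.0 FPKM in knockout pups. The neutrophil marker Ly6g was listed at 0 in all 4 libraries and the Langerhans cell marker Cd207, not tested, was 0.0401 and 0.0417 FPKM in the controls and listed at 0 in both knockouts. The part of these cells in the fall of Tnf was not tested.

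**Figure D3:**
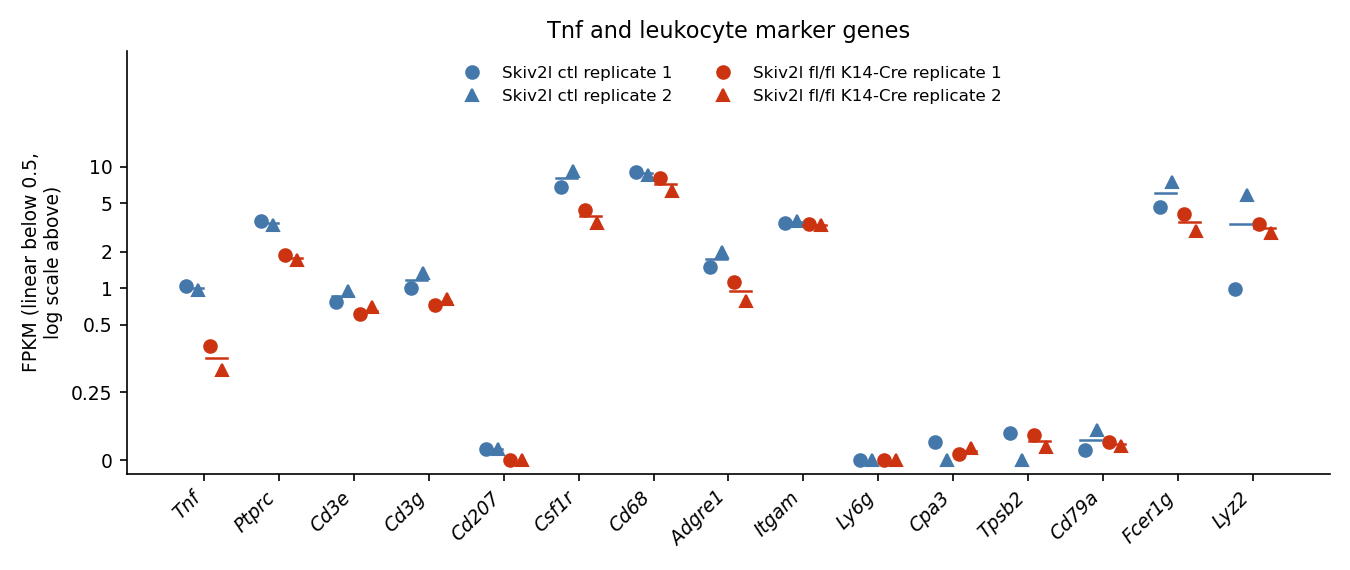
FPKM (y axis, linear below 0.5 and logarithmic above it) of Tnf and 14 leukocyte marker genes in the 4 libraries; points are single pups and short bars are means of groups with no library at 0. Tnf, Ptprc and Csf1r are lower in both knockouts, whereas Itgam differs little and Lyz2 varies most among the controls.

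The remaining cytokines did not separate the groups. Il23a (ENSMUSG00000025383.2), the p19 subunit of IL-23, was 0.635 and 1.01 FPKM in control pups and 1.198 and 0.586 FPKM in knockout pups, which overlap (log2 fold change 0.04, SE 0.21, limma adjusted p = 0.885). Il12b, which encodes the partner subunit of p19 in IL-23, was listed at 0 in all 4 libraries. Il17c (ENSMUSG00000046108.3), the epithelial member of the IL-17 family, was 0.468 and 0.221 FPKM against 0.673 and 0.163 FPKM (log2 fold change 0.06, SE 0.22, limma adjusted p = 0.849). The sign of both differences depends on single libraries. Csf3 (ENSMUSG00000038067.2), encoding the granulocyte growth factor G-CSF, was 0.375 and 0.237 FPKM in control pups and 0.295 and 0.0794 FPKM in knockout pups. It did not pass the filter, and with no filter it was not called (limma adjusted p = 0.419). Il6 (ENSMUSG00000025746.11) and Csf2 (ENSMUSG00000018916.5), encoding GM-CSF, were listed at 0 in all 4 libraries, as Il20 was, and no level can be given for these 3 genes.

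Summed over the 10 genes, the cytokines reached 2.76 and 2.53 FPKM in control pups against 19.1 and 10.2 FPKM in knockout pups. Tslp alone made up 62.0% and 67.3% of the sum in the latter, and Tslp with Il24 84.8% and 88.3%. In the controls Tnf and Il23a were the leading genes, with 60.7% and 78.0% of the sum together. By mean level the order in the controls was Tnf, Il23a, Il17c, Csf3 and Il24, in which only Il23a and Il17c, among neighbours, did not overlap. In the knockouts the order was Tslp, Il24, Il23a, Il17c, Tnf, Csf3 and Il19, in which Tslp, Il24 and Il23a were separate from each other, as Tnf was from Csf3, and the other neighbours overlapped. All 7 cytokines above 0 were lower in knockout replicate 2 than in replicate 1, as were 57.1% of all tested genes. Among the 3068 tested genes with a mean under 2 FPKM the share was 63.7%. Without Tslp and Il24 the cytokine sum was 2.90 and 1.195 FPKM in knockout replicates 1 and 2.

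The receptors of these cytokines did not move as one. Of 17 receptor genes 14 were tested, and 4 were called higher, 2 lower and 8 neither (median log2 fold change -0.004). In the full set of 13609 tested genes, 8.99% were called higher and 25.4% lower, and the median was -0.20. Crlf2, the specific chain of the TSLP receptor, was 3.55 and 3.93 FPKM in control pups and 7.91 and 7.10 FPKM in knockout pups. It rose by a log2 fold change of 0.84 (SE 0.12, limma adjusted p = 0.00381), a call lost only without control replicate 1 (adjusted p = 0.0610). Il7r, which completes that receptor, stayed low at 0.353 and 0.543 FPKM against 0.313 and 0.219 FPKM and was not called (limma adjusted p = 0.363).

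The chains of the IL-20 receptors, through which IL-19, IL-20 and IL-24 signal, changed in opposite directions. Il20ra was 0.227 and 0.313 FPKM in control pups and 3.17 and 2.04 FPKM in knockout pups (log2 fold change 1.49, SE 0.19, limma adjusted p = 0.00295). Il20rb, the chain shared by both receptor types, was 49.7 and 62.6 FPKM against 18.5 and 23.4 FPKM (log2 fold change -1.38, SE 0.15, limma adjusted p = 0.00193). Il20rb nevertheless stayed the more abundant of the pair in every library. Both calls held in all 12 alternatives. Il22ra1, which pairs with Il20rb in the other receptor type, was 25.4 and 28.0 FPKM against 20.4 and 23.8 FPKM and was not called (limma adjusted p = 0.105).

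Among the receptors of the other cytokines, Tnfrsf1a, the main TNF receptor of epithelial cells, was 64.7 and 61.5 FPKM in control pups and 82.4 and 81.6 FPKM in knockout pups (log2 fold change 0.37, limma adjusted p = 0.0158). The other TNF receptor gene, Tnfrsf1b, was 0.443 and 1.21 FPKM against 0.865 and 0.757 FPKM and was not called (limma adjusted p = 0.955). Il6st, which encodes gp130, the signalling chain of IL-6 family receptors, was 46.9 and 40.7 FPKM against 57.1 and 67.5 FPKM (log2 fold change 0.50, limma adjusted p = 0.0225), and Il6ra was not called (limma adjusted p = 0.722). Il17re, the receptor chain for IL-17C, fell from 9.998 and 11.7 FPKM to 7.06 and 5.03 FPKM (log2 fold change -0.76, limma adjusted p = 0.0170). These 3 calls were lost without either control, with adjusted p up to 0.113 for Tnfrsf1a, 0.146 for Il6st and 0.137 for Il17re, and that of Il6st also without knockout replicate 2 (0.0689). With no filter on low genes Il6st and Il17re also missed the threshold (adjusted p = 0.0595 and 0.0580). Il23r, Il12rb1 and Csf3r were under the filter.

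**Figure D4:**
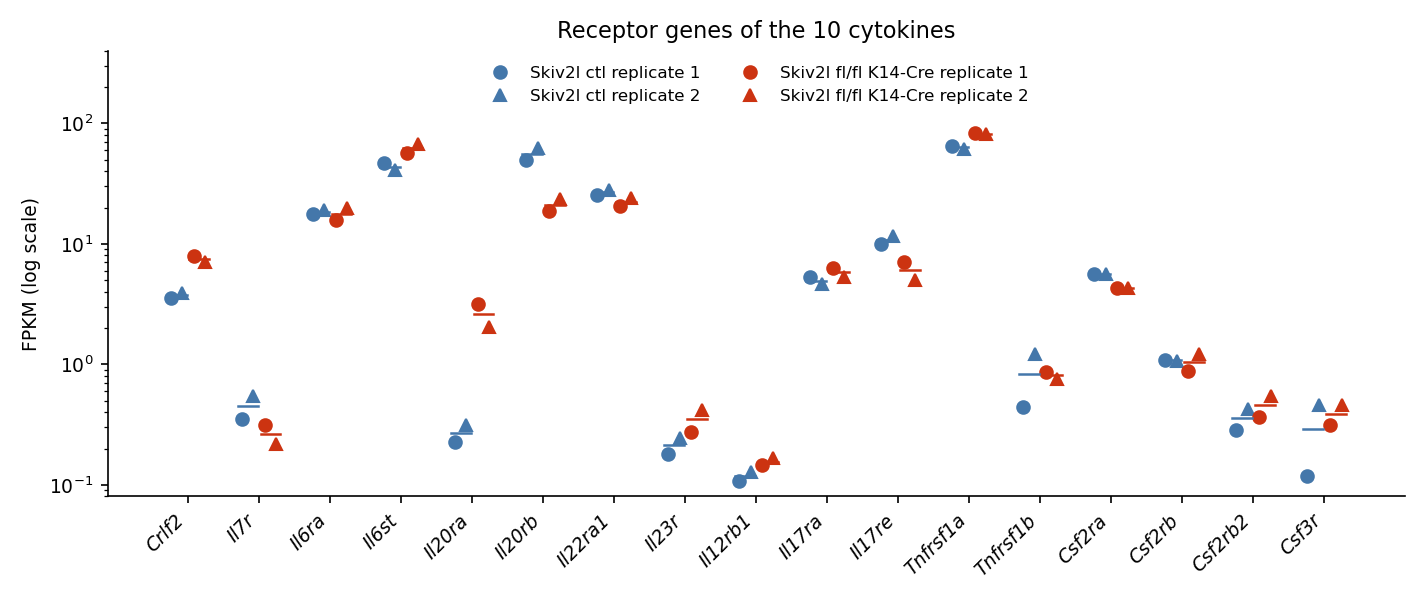
FPKM on a log scale (y axis) of 17 receptor genes of the 10 cytokines in the 4 libraries; points are single pups and short bars are group means. Crlf2 and Il20ra lie higher and Il20rb and Il17re lower in both knockouts.

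The 250 bases before the annotated start of 4 genes are shown because these genes gave opposite results: Tnf and Il20rb fell, Il20ra rose, and Il6 was listed at 0. They are RefSeq sequences of build GRCm38.p6, printed 5′ to 3′ on the strand of the gene, and 6 of the 10 cytokines had an entry (Il6, Il19, Il20, Il17c, Tnf and Csf2). Windows from 250 bases before to 50 bases after the start were searched on both strands for an AP-1 motif (TGANTCA), a STAT motif (TTCNNNGAA), a C/EBP motif (TTGCNNCAA), a TATA box (TATAAA) and the NF-kB consensus, with capitals marking each match. No pair of matches overlapped in the sequences shown, which lie at chr5:30012864-30013113 (plus strand, Il6), chr17:35202008-35202257 (minus, Tnf), chr10:19712337-19712586 (plus, Il20ra) and chr9:100486474-100486723 (minus, Il20rb).
Il6: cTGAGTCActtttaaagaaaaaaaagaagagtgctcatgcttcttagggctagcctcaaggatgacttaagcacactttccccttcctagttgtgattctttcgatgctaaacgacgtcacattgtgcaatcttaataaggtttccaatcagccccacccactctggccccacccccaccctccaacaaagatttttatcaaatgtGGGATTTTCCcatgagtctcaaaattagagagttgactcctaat
Tnf: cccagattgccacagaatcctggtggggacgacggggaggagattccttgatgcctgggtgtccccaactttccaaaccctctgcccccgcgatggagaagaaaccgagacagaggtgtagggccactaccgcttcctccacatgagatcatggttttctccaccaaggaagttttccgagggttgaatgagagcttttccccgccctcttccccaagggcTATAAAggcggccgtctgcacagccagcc
Il20ra: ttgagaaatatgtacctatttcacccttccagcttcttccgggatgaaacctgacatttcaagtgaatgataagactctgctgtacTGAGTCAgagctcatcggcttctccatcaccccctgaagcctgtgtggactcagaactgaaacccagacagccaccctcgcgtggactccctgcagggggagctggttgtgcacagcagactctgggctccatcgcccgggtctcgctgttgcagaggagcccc
Il20rb: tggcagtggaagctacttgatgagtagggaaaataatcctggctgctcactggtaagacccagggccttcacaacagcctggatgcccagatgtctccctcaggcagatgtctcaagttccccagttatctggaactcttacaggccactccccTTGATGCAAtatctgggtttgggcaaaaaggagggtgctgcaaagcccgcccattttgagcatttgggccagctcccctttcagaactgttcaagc

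The window of Il6 held an AP-1 match beginning at position -249 and an NF-kB match beginning at position -44, counted from the start. Of the 32851 windows of this length outside chromosome 18, which was left out, 7.81% held the AP-1 and 8.46% the NF-kB motif. The Tnf window held only a TATA box, at position -29, and 13.6% of these windows held a TATA box anywhere. Il20ra had an AP-1 match at position -164 and Il20rb a C/EBP match at position -96, the latter motif being in 2.08% of windows. Il19 had an NF-kB match and a STAT match, the STAT motif being in 8.30% of windows. Il17c had the TATAAA letters at position -248, far from the start, and Tnfrsf1a a STAT match at position -244. Il20, Csf2, Crlf2, Il6st and Il17re had none of the 5. The windows of Il20 and Csf2 follow a RefSeq start that differs from the gene start used for the levels, and the latter was not searched. These matches describe letters in a window and were not compared with the levels by a test.

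Other cytokines of the same families were mostly low. Of 34 such genes 11 were tested, and 1 was called higher and 4 were called lower (median log2 fold change -0.25). Of all tested genes, 8.99% were called higher and 25.4% lower, with a median of -0.20, so this list was near the background. Clcf1, an IL-6 family cytokine, was 1.22 and 1.25 FPKM in control pups and 4.70 and 2.57 FPKM in knockout pups (log2 fold change 1.02, limma adjusted p = 0.0191). Il34, which maintains Langerhans cells and is made by keratinocytes, fell from 29.7 and 27.3 FPKM to 10.1 and 9.19 FPKM (log2 fold change -1.48, SE 0.10, limma adjusted p = 0.000376). Il15 fell from 2.65 and 3.29 FPKM to 0.971 and 0.993 FPKM (log2 fold change -0.997, limma adjusted p = 0.00416). Il34 and Il15, ligands that support Langerhans cells and lymphocytes, kept their calls in all 12 alternatives. Ctf1 (log2 fold change -0.93, limma adjusted p = 0.00666) and Csf1 (-0.39, limma adjusted p = 0.0437), another ligand of the Csf1r receptor, were also called lower, and both missed the threshold without either control (adjusted p up to 0.0786 for Ctf1 and 0.242 for Csf1). Csf1 also missed it under median scaling (adjusted p = 0.216), and Clcf1 without either control (0.121 and 0.117) and with no filter (0.0675). The IL-17 and IL-22 genes of lymphocytes, Il17a and Il22, were listed at 0 in all 4 libraries, as were Il12a and Il3.

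Of 17 genes that carry the signals of these receptors, all tested, 2 were called higher and 2 lower, with a median of 0.01. Over all tested genes the shares were 8.99% and 25.4%, and the median was -0.20. Stat3, the transcription factor used by IL-6, IL-20 and IL-23 receptors, was 68.5 and 64.3 FPKM in control pups and 104 and 116 FPKM in knockout pups (log2 fold change 0.71, limma adjusted p = 0.00316), and this call held in all 12 alternatives. Jak2, a kinase that TSLP and IL-23 receptors use, was 6.96 and 7.57 FPKM against 11.8 and 11.7 FPKM (log2 fold change 0.63, limma adjusted p = 0.00602). Relb, a subunit of non-canonical NF-kB, fell from 8.70 and 8.04 FPKM to 5.39 and 4.63 FPKM (log2 fold change -0.64, limma adjusted p = 0.00980). The calls of Jak2 and Relb were lost without either control (adjusted p up to 0.0772 and 0.106). Stat5b was called lower (-0.49, limma adjusted p = 0.0447), but neither under median scaling (adjusted p = 0.209) nor without either control (0.256 and 0.107), and it was called in 5 of the 12 alternatives, as Csf1 was. Rela and Nfkb1 were not called (limma adjusted p = 0.164 and 0.940).

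Among 16 genes listed as negative regulators, which act on cytokine mRNAs or on cytokine signalling, 3 were called higher and 1 lower, with a median of -0.07. Over all tested genes these values were 8.99%, 25.4% and -0.20. Zc3h12a, which encodes the RNA nuclease regnase-1 that degrades cytokine mRNAs, rose from 10.7 and 10.4 FPKM to 20.1 and 23.4 FPKM (log2 fold change 0.97, SE 0.11, limma adjusted p = 0.00183) and was called in all 12 alternatives. Socs2 (0.68, limma adjusted p = 0.0161) and Socs3 (0.63, limma adjusted p = 0.0494), inhibitors of JAK and STAT signalling, were higher, and Cish, an inhibitor of STAT5 signalling, was lower (-0.51, limma adjusted p = 0.0151). All 3 lost the call without either control (adjusted p up to 0.115 for Socs2, 0.256 for Socs3 and 0.126 for Cish), and Cish also under median scaling (0.0836), while Socs3 was called in 6 of the 12 alternatives, Cish in 8 and Socs2 in 9. Zfp36, whose product binds AU-rich cytokine mRNAs, was 24.5 and 17.2 FPKM against 23.1 and 37.7 FPKM and was not called (limma adjusted p = 0.168).

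Of 16 genes that such cytokines can induce in keratinocytes, 12 were tested and 10 were called higher and 0 lower (median log2 fold change 2.05). Of all tested genes, 8.99% were called higher and 25.4% lower. What raised these genes in the knockouts was not tested. The list was chosen with earlier results of these data known, so its count is a description. S100a8 and S100a9, which encode calprotectin, went from at most 1.27 and 1.61 FPKM in the controls to 775 and 804 FPKM and to 974 and 965 FPKM (log2 fold changes 8.81 and 8.76, limma adjusted p = 1.46e-05 and 1.16e-05). Krt6a and Krt16, keratins of stressed epidermis, had log2 fold changes of 6.13 and 3.99 (limma adjusted p = 5.14e-05 and 1.33e-05), and Defb4, encoding an antimicrobial peptide, 4.75 (limma adjusted p = 2.80e-05). Cxcl1, which draws neutrophils, was 0.249 and 0.0274 FPKM against 0.796 and 0.217 FPKM and was not called (limma adjusted p = 0.231), and Cxcl5 was listed at 0 in all 4 libraries. Nor was Il1b called (limma adjusted p = 0.818), and Cxcl2, Cxcl3 and Saa3 did not reach the filter.

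Of 8 genes linked to the control of Tslp in skin, all tested, 3 were called higher and 1 lower, against 8.99% and 25.4% of all tested genes. Il33, an alarmin, was 0.805 and 1.14 FPKM in control pups and 102 and 86.5 FPKM in knockout pups (log2 fold change 5.60, limma adjusted p = 1.33e-05). Spink5, an inhibitor of epidermal proteases that trigger TSLP, rose from 159 and 180 FPKM to 382 and 327 FPKM (log2 fold change 1.06, limma adjusted p = 0.00166). Vdr, the vitamin D receptor, whose ligands induce Tslp in mouse skin, was 8.21 and 10.4 FPKM against 17.0 and 18.3 FPKM (log2 fold change 0.87, limma adjusted p = 0.00486), and its call was lost only without control replicate 1 (adjusted p = 0.0508). Rxra, its partner receptor, was called lower (-0.43, limma adjusted p = 0.01), but neither under median scaling (adjusted p = 0.0811) nor without either control (0.0654 and 0.0874). The protease gene Klk5 and its receptor gene F2rl1 were not called (limma adjusted p = 0.426 and 0.743), nor was Notch1 (0.0650).

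**Figure D5:**
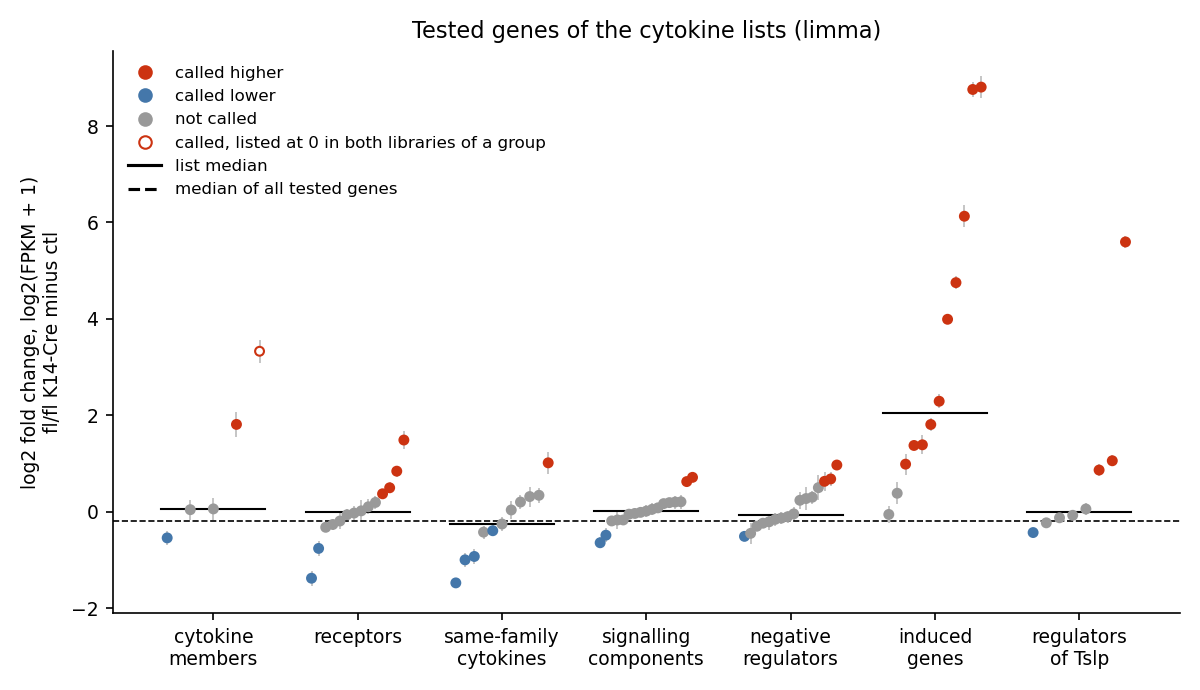
Log2 fold change of every tested gene in 7 lists (y axis, knockouts minus controls on the log2(FPKM + 1) scale, bars are SE from limma); solid lines are list medians and the dashed line is the median of all 13609 tested genes, -0.20. The open point is Tslp, listed at 0 in both controls, whose position depends on the pseudocount; the 10 called induced genes are all higher.

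By the distance between centred log2 levels over the 4 libraries, the genes most like Tslp were Nrg1 (distance 0.260), Il4ra (0.266) and Lce3e (0.284). Il4ra, the receptor chain shared by IL-4 and IL-13, was 7.22 and 8.59 FPKM in control pups and 94.1 and 66.0 FPKM in knockout pups. The genes most like Il24 were Tubb6 (0.224), Syt8 (0.236) and Pxdc1 (0.280), and those most like Tnf were Cpa6 (0.0129), Mllt1 (0.0160) and Prrc2a (0.0170). These distances use log2(FPKM + 1), so a low gene can lie near an abundant gene whose level changed by a smaller ratio. Mllt1, for example, was 36.4 and 35.5 FPKM in control pups and 25.1 and 23.4 FPKM in knockout pups, a smaller ratio than that of Tnf. The coding gene nearest to Tslp at higher coordinates, Wdr36, 17428 bases away, was not called (log2 fold change 0.29, limma adjusted p = 0.133), and Gypc, 255349 bases away on the other side, was under the filter.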

How the data were processed

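Epidermal total RNA of 4 mouse pups, 2 per genotype, was analysed from 1 table per library. Reads had been processed by the authors in an institutional workflow, and the aligner and strandedness are not given in the sources used here. The deposited FPKM values are scaled for library size and transcript length, the deposited TPM values share 1 sum per library, and coverage, also deposited, is a signal of mean read depth per base. Without read counts no counting interval could be given, and the 2 pups per genotype limit the precision.

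FPKM of repeated identifiers was summed. Gene positions matched GENCODE M21 on GRCm38 for 54029 of 54752 genes. Of 21921 protein-coding genes, the 13609 that exceeded 0.5 FPKM in any library were fitted by limma (version 3.58.1, R 4.3.3) on log2(FPKM + 1) with lmFit and a trended eBayes. Two-sided p-values were adjusted by Benjamini-Hochberg over all of them and called under 0.05. The script was tested on simulated data. An exact permutation test of 2 against 2 cannot go below p = 0.333 and was not used. The aliases Il1f6 and Il1f9 of Il36a and Il36g were taken from RefSeq.

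The members and the gene lists were chosen with earlier results of these data known. Named were all members, Skiv2l, up to 5 called genes with the largest changes per list, the receptors of called members, the 3 genes nearest in pattern and the coding neighbours of called members. Other genes, those not called or at 0, were named after their values were seen. Alternatives were a pseudocount of 0.1, TPM, no filter, a filter of FPKM above 1 in 2 or more libraries, quantile normalization, median scaling, untrended eBayes, a block for the replicate number, and omission of each library. Groups shared the replicate numbers 1 and 2 in the labels, which are not said to mark a shared litter or day.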

Additional observations from a re-analysis of the deposited data

How the results depend on the processing

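Of 58 refits of the tested cytokines, 47 kept the direction and the side of the threshold, and the cause of the other 11 was not tested. Tnf missed the threshold under median scaling (-0.46), quantile normalization (-0.37) and each omission of a library (-0.59 to -0.49), and was not tested with FPKM above 1 in at least 2 libraries. Il24 ranged from 1.43 to 2.20 over the omissions. The size of a fold depended on the scale: with a pseudocount of 0.1 and with TPM, Il24 was 3.60 and 2.66 in place of 1.81, and Tnf -1.22 and -0.91 in place of -0.54. Il17c reversed without control replicate 2 (-0.07) and without knockout replicate 1 (-0.20), up to 0.32 without its replicate 2. Il23a reversed without control replicate 1 (-0.11) and without knockout replicate 1 (-0.19), up to 0.28 without its replicate 2. Tslp was called in each refit, with no fold given because both controls are listed at 0. Omitting a library leaves 1 pup in its group, assumed to vary like the other group.

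Of 192 recounts of calls, 144 stayed within 1.5 times. Median scaling gave 1894 higher and 1623 lower over all genes, quantile normalization 1917 lower. Cytokines called lower went to 0 under median scaling, quantile normalization and the stricter filter. Negative regulators called higher went to 1 with no filter, and those called lower to 3 with TPM and 0 under both scalings. Receptors called lower went to 1 with no filter, regulators of Tslp called lower to 2 with TPM and 0 under median scaling, and same-family cytokines called higher to 2 with no filter. Signalling components called higher went to 4 under median scaling, and those called lower to 1 with no filter, under both scalings and without a trend. Omitting each library gave the following ranges of calls: all genes 497 to 1146 higher and 805 to 3135 lower, cytokines 1 to 2 higher and 0 lower, negative regulators 1 to 4 higher and 0 to 2 lower, receptors 1 to 4 higher and 1 to 2 lower, regulators of Tslp 0 to 1 lower, same-family cytokines 0 to 1 higher and 2 to 4 lower, signalling components 1 to 3 higher and 0 to 2 lower.

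The correlation between same-numbered deviations was -0.08. With so few pups per group, this value cannot decide whether the replicate numbers mark a shared litter or day. With the replicate block, 4657 genes were called in place of 4678, 4326 of them the same genes, and Tslp, Il24 and Tnf stayed called (adjusted p = 2.0e-05, 0.000400 and 0.0473), while Csf1 was lost (0.0546).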
